A study of Homo sapiens with 6 samples.

Results

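The granins and the enzymes that process prohormones were followed by 10 genes of 28008 in the count table, chosen by symbol: the granin genes CHGA, CHGB, SCG2, SCG3, SCG5 and VGF, and the enzyme genes PCSK1, PCSK2, CPE and PAM. RNA-seq was performed on NCI-H660 (H660) cells, a line of neuroendocrine prostate cancer (NEPC), that carried 1 short hairpin RNA against MUC1 in a tetracycline-inducible vector and were selected in puromycin. DOX-negative cells received 0.1% DMSO as vehicle (n = 3 libraries), and DOX-positive cells received doxycycline (DOX) at 500 ng/ml to induce the hairpin and silence MUC1-C (n = 3). Exposure lasted 7 days per the study's figure legends. All libraries came from the same transduced line, and a control hairpin with DOX is not part of these 6 libraries, so effects of DOX and of the hairpin cannot be told apart. The labels state triplicate cultures but not whether they were independent, so the p values measure the spread between these libraries, which may be technical.

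Neuroendocrine cells store peptide hormones in dense-core granules, which bud from the trans-Golgi network and are released on demand. Granins are acidic, calcium-binding proteins that aggregate in the granule lumen, help to sort its cargo and are themselves cut into peptides. Prohormone convertases cut precursors after basic residues, carboxypeptidase E trims those residues, and an amidating enzyme finishes the C-terminus of many peptides. Circulating or stained chromogranin A is a common marker of neuroendocrine tumors, including NEPC.

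DOX treatment to silence MUC1-C was followed by lower transcripts of 2 of the 4 processing enzymes and by a higher transcript of 1 of the 6 granins. PCSK2 fell by 30.5% and CPE fell by 25.7% in mean normalized CPM, which are counts scaled to a common library size with TMM factors. SCG5, which encodes the chaperone of the PCSK2 product, rose 1.64-fold from a low level. The other 7 members, among them CHGA, were not called. With DOX-negative replicate 2 or 3 left out, 0 of the 10 members were called. Gene positions are RefSeq spans on GRCh38.p14, and the submitters' processing notes name GRCh38. The groups were compared with edgeR's quasi-likelihood test on the counts of 17026 tested genes, and a gene was called at a Benjamini-Hochberg adjusted p under 0.05. Fold changes are given as log2 values, with those above 0 higher in DOX-positive libraries, and all 10 members passed the filter on low counts. With 3 of 10 members called, the background was 829 of 17026 genes (4.87%), of which 496 were higher (2.91%) and 333 lower (1.96%).

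Total counts were between 47620696 and 74061121 per library. MUC1 itself was at 88.2, 90.2 and 79.6 CPM in DOX-negative and at 36.7, 37.2 and 29.9 CPM in DOX-positive libraries, a log2 fold change of -1.32 (SE 0.096, edgeR adjusted p = 0.00017). RN7SK, a noncoding RNA, held 5.83 to 7.79% of the counts of a library and 21.2 to 27.1% of its TPM (counts divided by gene length and rescaled to a common total). Neuroendocrine markers were present in all libraries for 6 of 6 listed genes, with a summed level of 713 to 811 CPM without and 579 to 729 CPM with DOX, and 2 of them, INSM1 and NCAM1, were called lower (-0.45 and -0.50). The luminal markers KLK3 and KLK2 were at 3 counts or fewer in every library. Basal markers summed to 0.42 to 0.55 and 0.29 to 0.64 CPM, with KRT5 and KRT14 at 3 counts or fewer. Fibroblast markers summed to 25.1 to 30.6 and 23.4 to 27.9 CPM, with 4 of 7 at 3 counts or fewer and the other 3 tested. Of these, COL1A1 (0.60) and LUM (1.06) were called higher, while COL1A2 was at 18.1 ± 3.48 CPM without and 11.1 ± 3.77 CPM with DOX (-0.71, adjusted p = 0.20). The part of any of these marker levels in the results on the members was not tested. In bulk RNA, fewer cells of a type and less RNA per cell cannot be told apart.

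Promoter sequences from RefSeq (GRCh38.p14) covered 8 of the 10 members, and CHGB and SCG2 had no entry in the table used. Each window ran from 250 bases before to 50 bases after an annotated transcript start. The windows were searched on both strands for the cAMP response element (CRE), a site bound by CREB-family factors, as the palindrome TGACGTCA and as its core TGACG, of which each palindrome holds 1 on each strand. The palindrome was found in 3 of the 8 members, CHGA, VGF and PCSK1, beginning 54, 79 and 77 bases before the start, and in 614 of 27305 genes with a window (2.25%). A core was found in 8 of 8 members and in 28.4% of genes. In PAM it began 15 bases after a start. All 8 members were tested genes, and of 12026 tested genes with a window, 424 held the palindrome and 4646 a core. Both motifs were thus more frequent among tested genes than the 2.25% and 28.4% over all genes with a window. The tested genes are the closer background for the members. A match describes letters in a window and is not a measured binding site. The 150 bases before the start are shown for the 3 members with the palindrome and for the 3 called members, with palindromes and cores in capitals.
CHGA (chr14:92923000-92923149, plus strand): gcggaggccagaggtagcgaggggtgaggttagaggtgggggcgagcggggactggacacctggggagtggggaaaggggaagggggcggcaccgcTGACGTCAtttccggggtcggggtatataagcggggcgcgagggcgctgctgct
VGF (chr7:101165570-101165719, minus strand): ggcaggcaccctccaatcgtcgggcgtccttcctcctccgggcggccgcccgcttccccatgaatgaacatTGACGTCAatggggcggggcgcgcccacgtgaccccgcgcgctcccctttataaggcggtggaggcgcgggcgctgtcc
PCSK1 (chr5:96433249-96433398, minus strand): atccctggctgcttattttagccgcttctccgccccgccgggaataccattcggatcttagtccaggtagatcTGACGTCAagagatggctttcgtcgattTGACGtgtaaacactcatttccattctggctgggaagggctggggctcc
SCG5 (chr15:32641560-32641709, plus strand): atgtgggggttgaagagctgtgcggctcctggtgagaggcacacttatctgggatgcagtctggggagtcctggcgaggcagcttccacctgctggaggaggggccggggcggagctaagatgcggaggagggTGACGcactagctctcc
PCSK2 (chr20:17226890-17227039, plus strand): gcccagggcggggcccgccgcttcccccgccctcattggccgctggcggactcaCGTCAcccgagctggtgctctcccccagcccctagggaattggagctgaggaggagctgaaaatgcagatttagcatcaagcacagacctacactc
CPE (chr4:165378858-165379007, plus strand): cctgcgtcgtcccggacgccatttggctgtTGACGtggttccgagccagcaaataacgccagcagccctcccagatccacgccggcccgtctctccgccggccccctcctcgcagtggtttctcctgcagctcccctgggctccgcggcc
PCSK1 and PCSK2 each had 2 windows, and the window with a motif within the 150 bases is shown. The stretches of CHGA, VGF and PCSK2 lie inside the outer bounds of their genes, before a later transcript start, and whether they are exonic in a longer transcript was not analysed here. The core lay 17 bases in SCG5, 96 bases in PCSK2 and 120 bases in CPE before the start. None of the 3 members with the palindrome was called. Of 424 tested genes with the palindrome, 19 were called higher and 5 lower (5.66%), with a median log2 fold change of 0.01. Of 4646 tested genes with a core, 121 were called higher and 77 lower (4.26%), with a median of 0.005. Both shares lay near that of all tested genes, which was 4.87% (2.91% higher and 1.96% lower).

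Per gene length, CPE had the highest transcript level of the members and SCG5 the lowest. In TPM (mean ± SD, n = 3), DOX-negative levels were 45.5 ± 4.94 for CPE, 29.8 ± 6.70 for CHGA, 19.8 ± 4.06 for SCG3, 15.4 ± 3.93 for VGF and 12.9 ± 3.45 for CHGB. They were 8.33 ± 1.99 for SCG2, 6.92 ± 0.807 for PAM, 6.39 ± 0.780 for PCSK2, 4.85 ± 0.791 for PCSK1 and 0.385 ± 0.0576 for SCG5. Neighbours in this order overlapped across DOX-negative libraries, except CPE above CHGA, PCSK2 above PCSK1 and PCSK1 above SCG5. DOX-positive levels were 35.1 ± 9.87 TPM for CPE, 26.3 ± 4.92 for CHGA, 21.9 ± 6.25 for SCG3, 15.8 ± 3.01 for CHGB and 13.3 ± 2.07 for VGF. The remaining DOX-positive levels were 7.56 ± 2.22 TPM for SCG2, 6.77 ± 1.59 for PAM, 5.66 ± 1.38 for PCSK1, 4.53 ± 0.980 for PCSK2 and 0.633 ± 0.0558 for SCG5. With DOX the order of VGF and CHGB and that of PCSK2 and PCSK1 were exchanged. Within single libraries, VGF was above CHGB in 3 of 6 and PCSK2 above PCSK1 in 4 of 6, while each of the other neighbours kept its order in 6 of 6. The levels of SCG5 were far below those of the rest, and its counts were 128, 92 and 90 without and 172, 182 and 237 with DOX.

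**Figure D1:**
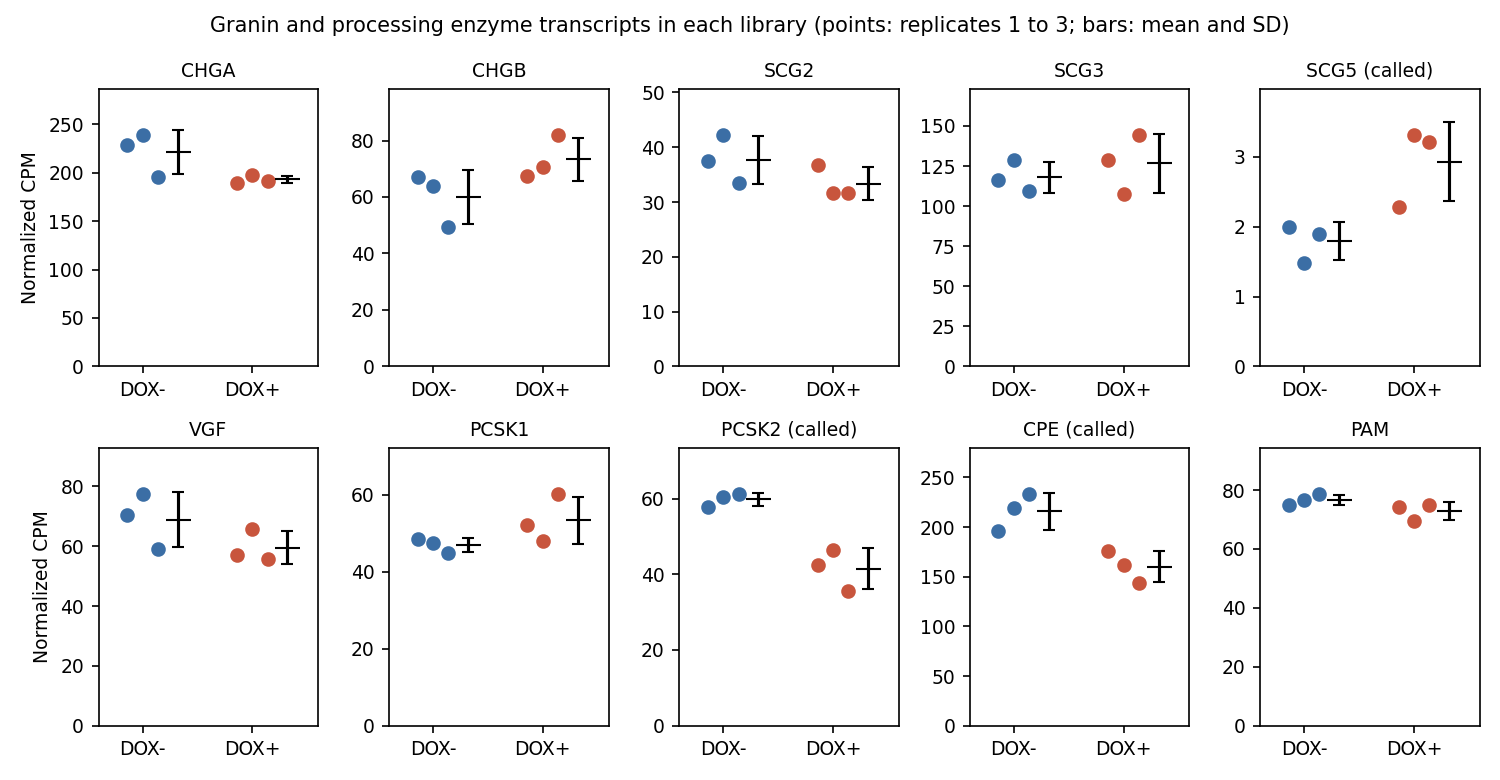
Normalized CPM (y axis, linear, from 0) of each of the 10 genes in the 3 DOX-negative (DOX-) and 3 DOX-positive (DOX+) libraries, with replicates 1 to 3 as points from left to right and the mean and SD as a bar. PCSK2 and CPE lie lower and SCG5 higher in all 3 DOX-positive libraries, while the CHGA points of the groups overlap.

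Chromogranin A, encoded by CHGA (chr14:92922664-92935285), is the major granin of the granule core. Its level was 229, 239 and 195 CPM in DOX-negative replicates 1 to 3 and 189.7, 197 and 192 CPM in DOX-positive replicates 1 to 3. DOX-negative replicate 3 lay inside the DOX-positive range, so the groups overlapped. The log2 fold change was -0.20 (SE 0.082, 95% interval -0.38 to -0.02, adjusted p = 0.19), and the spread was 10.2% of the mean without and 2.08% with DOX. CHGB (chr20:5911510-5925353), which encodes chromogranin B, was at 67.1, 63.9 and 49.2 CPM without and 67.3, 70.7 and 81.9 CPM with DOX. Its groups were adjacent without overlapping, with DOX-positive replicate 1 just above DOX-negative replicate 1. The log2 fold change was 0.29 (SE 0.11, interval 0.04 to 0.53, adjusted p = 0.17). Both intervals are unadjusted for the number of genes, and 21.1% of tested genes had an unadjusted p under 0.05.

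SCG2 (chr2:223596940-223602361) encodes secretogranin II, the precursor of secretoneurin. It was at 37.5, 42.2 and 33.4 CPM without and 36.8, 31.6 and 31.6 CPM with DOX, a log2 fold change of -0.18 (SE 0.10, interval -0.40 to 0.04, adjusted p = 0.35). DOX-positive replicate 1 was higher than DOX-negative replicate 3, and the groups overlapped. Secretogranin III, the product of SCG3 (chr15:51681503-51721026), binds chromogranin A at the granule membrane. Its transcript was at 116, 128 and 109 CPM without and 129, 108 and 144 CPM with DOX, with the highest and the lowest value both in the DOX-positive group (log2 fold change 0.10, SE 0.10, adjusted p = 0.62). VGF (chr7:101162509-101169952), a precursor of several neuropeptides that is inducible by nerve growth factor, was at 70.4, 77.3 and 58.9 CPM without and 57.2, 65.8 and 55.6 CPM with DOX. DOX-positive replicate 2 exceeded DOX-negative replicate 3, and the log2 fold change was -0.21 (SE 0.10, interval -0.44 to 0.01, adjusted p = 0.27).

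SCG5 (chr15:32641710-32697092) encodes the 7B2 protein, a chaperone that keeps the PCSK2 proenzyme from aggregating and whose C-terminal peptide inhibits it. Its level was 2.00, 1.49 and 1.89 CPM without and 2.28, 3.31 and 3.21 CPM with DOX, or 1.79 ± 0.271 and 2.93 ± 0.572 CPM (SD, n = 3). All 3 DOX-positive libraries were above all 3 DOX-negative libraries, with DOX-positive replicate 1 closest to the DOX-negative range. The log2 fold change was 0.71 (SE 0.18, interval 0.31 to 1.10, adjusted p = 0.047), so SCG5 was called higher close to the threshold. The call was lost without each library but DOX-positive replicate 1: the log2 fold change was 0.80 (adjusted p = 0.053), 0.58 (0.19) and 0.74 (0.16) when DOX-negative replicates 1, 2 and 3 were left out in turn. It was 0.62 (0.095) when DOX-positive replicate 2 was left out and 0.63 (0.12) when replicate 3 was. Its sign was kept in all 16 alternatives that gave a value, 10 of which lost the call. SCG5 shares its locus with the readthrough gene ARHGAP11A-SCG5 and the antisense gene SCG5-AS1, which are not in the count table, and the strand setting of the counting is not given in the sources used here.

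**Figure D2:**
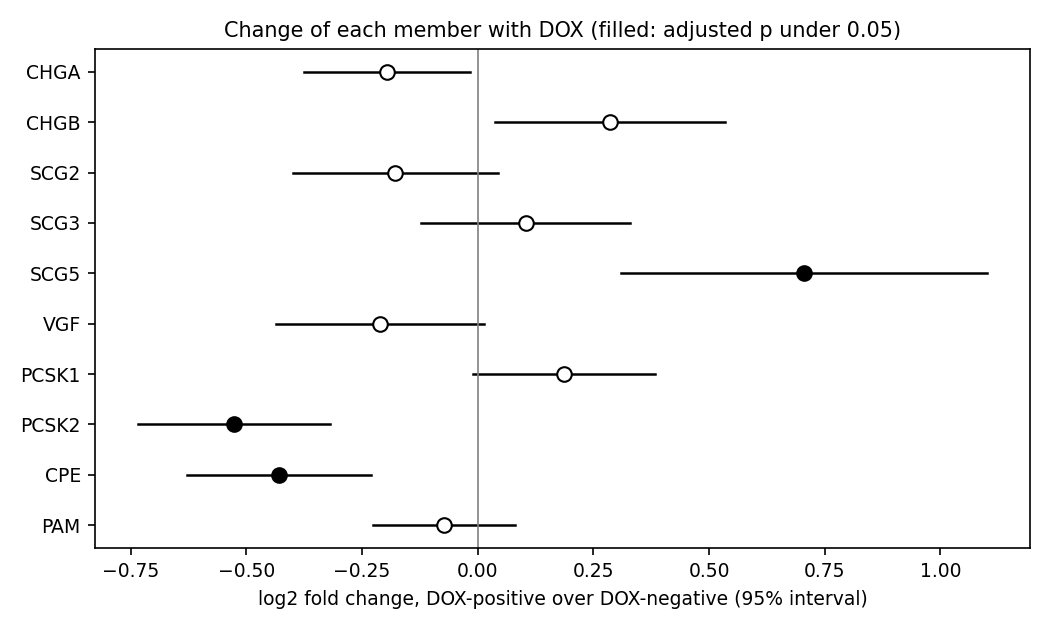
Log2 fold change of DOX-positive over DOX-negative libraries (x axis) for each of the 10 genes, as a point with its 95% interval from edgeR, filled where the adjusted p was under 0.05. The filled points are SCG5 at 0.71, PCSK2 at -0.53 and CPE at -0.43.

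The prohormone convertases PC1/3 and PC2, encoded by PCSK1 and PCSK2, cut prohormones in the regulated secretory pathway. PCSK2 (chr20:17226107-17484578) was at 57.9, 60.4 and 61.1 CPM without and 42.4, 46.5 and 35.7 CPM with DOX, or 59.8 ± 1.71 and 41.5 ± 5.43 CPM. The DOX-negative libraries lay close together and above all DOX-positive libraries, of which replicate 3 was the lowest. The log2 fold change was -0.53 (SE 0.096, interval -0.73 to -0.32, adjusted p = 0.013). It was -0.52 when DOX-negative replicate 2 was left out (adjusted p = 0.066) and -0.52 when replicate 3 was (adjusted p = 0.085), so either removal lost the call. In those fits 127 (0.737%) and 58 (0.337%) of all tested genes were called.

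PCSK1 (chr5:96390333-96433248) went the other way in its mean and was not called. It was at 48.5, 47.5 and 44.9 CPM without and 52.2, 48.1 and 60.1 CPM with DOX, a log2 fold change of 0.19 (SE 0.091, interval -0.01 to 0.38, adjusted p = 0.27). DOX-positive replicate 2 lay inside the DOX-negative range. PCSK1 overlaps CAST, a gene with a mean of 4378 counts per library, and with the strand setting not given its counts are uncertain. Relative to PCSK2 in the same library, PCSK1 counts were 0.839, 0.786 and 0.735 without and 1.23, 1.03 and 1.68 with DOX. PCSK1 counts were thus below PCSK2 counts in each DOX-negative and above them in each DOX-positive library. Counts are not divided by gene length. In TPM, PCSK2 was still above PCSK1 in DOX-positive replicate 2 (4.11 against 4.09). The count ratio was 1.64-fold higher with DOX on the geometric mean (log2 difference 0.71). Its exact two-sided permutation p was 0.1, which is the smallest that 3 against 3 libraries can give.

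The ratio of SCG5 to PCSK2, chaperone over enzyme, showed a larger difference. SCG5 counts per PCSK2 count were 0.0346, 0.0246 and 0.0309 without and 0.0537, 0.0712 and 0.0900 with DOX. No DOX-positive library reached down to the DOX-negative range, and the ratio was 2.35-fold higher (log2 difference 1.24, exact permutation p = 0.1). As SCG5 was called higher and PCSK2 lower on their own, this ratio combines those changes and is no further support for them. The same holds for PCSK1 over PCSK2, in which PCSK2 was the called member. PCSK1N encodes proSAAS, an inhibitor of the PCSK1 product, and its counts per PCSK1 count were 0.991, 1.13 and 0.867 without and 1.03, 1.48 and 0.821 with DOX. Those groups overlapped (log2 difference 0.12, exact permutation p = 0.8), and without DOX-positive replicate 2 the difference was -0.11. After Benjamini-Hochberg adjustment over the 3 ratios, p was 0.15, 0.15 and 0.8. None could pass the threshold, since the smallest possible p was 0.1. The ratios do not depend on how libraries were scaled.

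**Figure D3:**
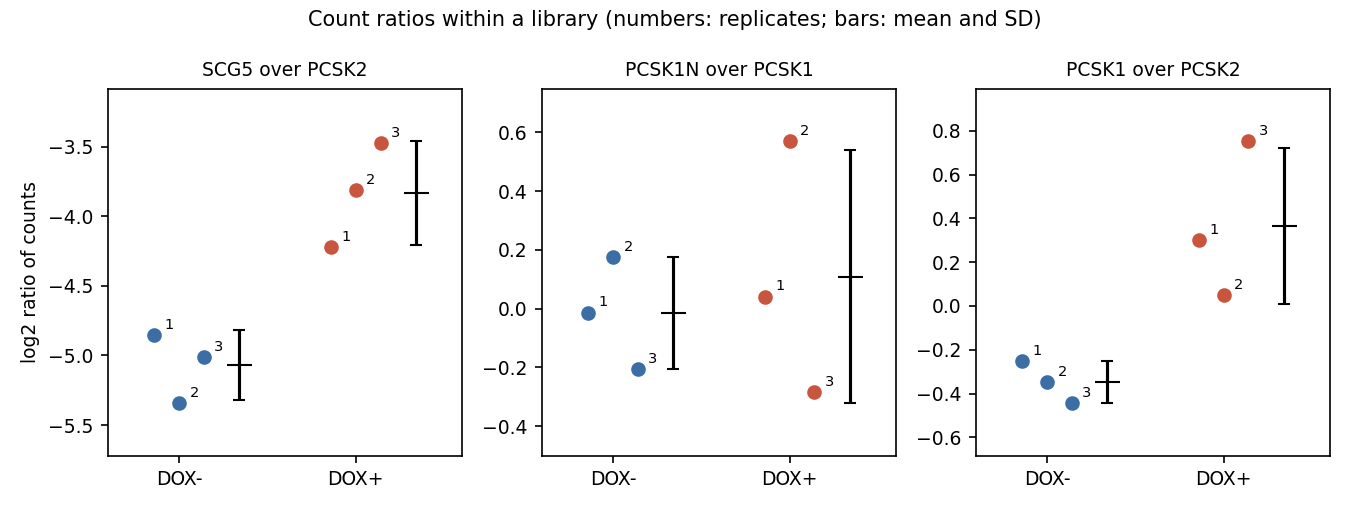
Log2 ratio of the counts of 2 genes within each library (y axis) for SCG5 over PCSK2, PCSK1N over PCSK1 and PCSK1 over PCSK2, with the replicate number beside each point and the mean and SD as a bar. The groups are apart for SCG5 over PCSK2 and for PCSK1 over PCSK2 and overlap for PCSK1N over PCSK1.

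CPE (chr4:165379008-165498547) encodes carboxypeptidase E, which removes the basic residues that convertases leave and also serves as a sorting receptor. It was at 196, 219 and 233 CPM without and 176, 161 and 144 CPM with DOX, or 216 ± 18.7 and 160.2 ± 16.1 CPM. Each DOX-negative library was above each DOX-positive library, with DOX-negative replicate 1 and DOX-positive replicate 1 closest to each other. The log2 fold change was -0.43 (SE 0.091, interval -0.63 to -0.23, adjusted p = 0.023). The call was lost when DOX-negative replicate 2 (-0.42, adjusted p = 0.0996) or 3 (-0.38, adjusted p = 0.13) or DOX-positive replicate 3 (-0.36, adjusted p = 0.064) was left out. PAM (chr5:102754783-103031105) encodes the peptidylglycine alpha-amidating monooxygenase, the amidating enzyme. Its transcript was at 75.02, 76.7 and 78.5 CPM without and 74.4, 69.5 and 74.98 CPM with DOX, so the groups were adjacent without overlapping. The log2 fold change of PAM was -0.07 (SE 0.071, interval -0.23 to 0.08, adjusted p = 0.61), the smallest in size among the 10 members in this fit.

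Across the members, the median log2 fold change was -0.13, against 0.0003 over all tested genes, and 6 of 10 members had a fold change below 0, as did 49.9% of tested genes. Groups did not overlap in normalized CPM for 5 of 10 members (SCG5, PCSK2, CPE, CHGB and PAM), where the background was 28.1% of tested genes. In TPM only SCG5 did not overlap, 1 of 10 members against a background of 6.97% of 16635 genes. The 6 granins together summed to 507 ± 53.3 CPM without and 489 ± 16.9 CPM with DOX, a ratio of 0.963. The 4 enzymes together were at 377, 403 and 417 CPM without and 345, 325 and 314 CPM with DOX, a ratio of 0.822. In TPM the enzyme sums overlapped between groups, at 62.0, 71.4 and 57.7 without and 67.1, 41.7 and 47.4 with DOX. The enzyme sum contains CPE and PCSK2, which were called on their own, and is no further support for them. CHGA and CPE were the largest terms of these sums. DOX-negative replicate 3, the library with the fewest counts, was the lowest of its group in 6 of the 10 members, which were CHGA, CHGB, SCG2, SCG3, VGF and PCSK1. That library was the highest of its group in 3 of the 10, which were PCSK2, CPE and PAM. These CPM values are scaled for library size, and the part of its lower counts in this was not tested. The same positions were not counted over all tested genes.

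Changing the processing moved calls more than directions. No member changed sign in any of 178 alternative fits of single members, of which 155 kept the side of the threshold, 21 lost a call and 2 gained one. PCSK2 kept its call in 13 of 18 alternatives, CPE in 12 of 18 and SCG5 in 6 of 16. DESeq2 called the same 3 members, and 8.46% of the genes it tested. At a minimum mean TPM of 1, limma-trend with pseudocounts of 1 and 0.1 on log2 TPM called 0 members and 0.256% and 0.299% of all genes, and 1 of 9 tested members had an unadjusted p under 0.05 in each, against 2.84% and 2.81% of all genes. With any mean TPM above 0 it called 0 of 21241 genes, and 2 of 10 members had an unadjusted p under 0.05, against 5.88% of all genes. The part of the RN7SK share of TPM in this was not tested. When trends in GC content and gene length were removed by offsets, CHGA (-0.23, adjusted p = 0.032) and VGF (-0.25, adjusted p = 0.030) were also called lower, for 5 of 10 members against 11.5% of all tested genes. Of these, 1 was higher (background 6.74%) and 4 were lower (4.77%). The members called numbered 3 of 10 with RLE scaling factors (4.62% of all genes called), without a count filter (4.99%) and with a replicate block (5.86%). SCG5 alone dropped out, leaving 2 of 10 called by edgeR, with no scaling factors (3.94%), with a minimum mean of 50 counts (5.12%), on protein-coding genes (5.49%) and with the GC and length offsets plus the block (6.54%). Removal of 1 DOX-negative library left 2, 0 and 0 members called for replicates 1 (3.68%), 2 and 3, with 4, 4 and 6 of 10 members at an unadjusted p under 0.05, against 18.9%, 15.3% and 14% of all genes. Likewise, removal of 1 DOX-positive library left 3, 2 and 1 for replicates 1 (6.02%), 2 (4.8%) and 3 (2.17%).

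**Figure D4:**
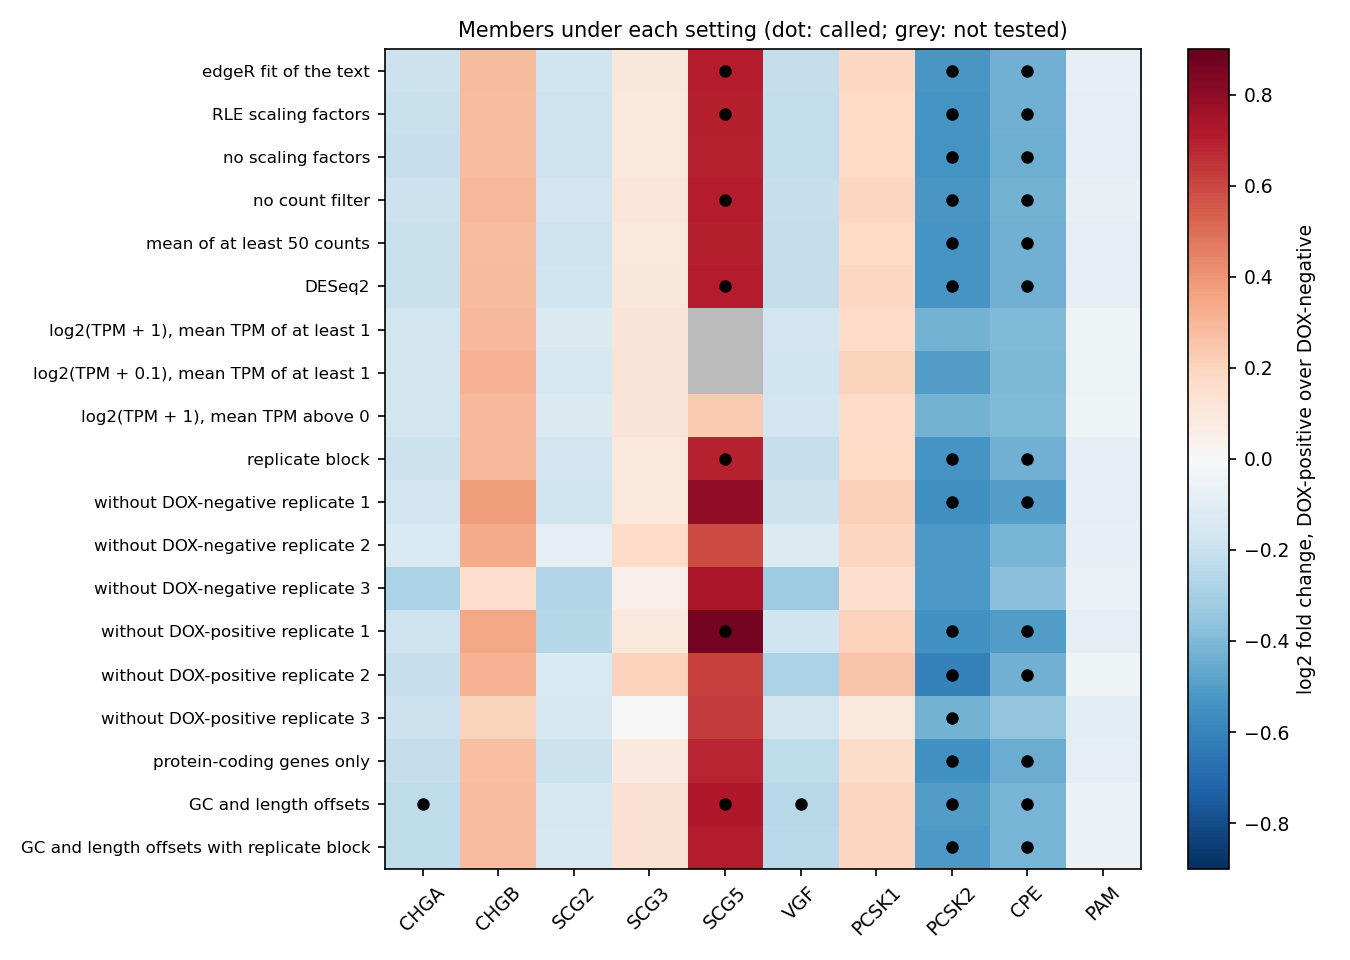
Log2 fold change of each of the 10 genes (columns, color scale) under the edgeR fit of the text and 18 alternatives (one per line), with a dot where the gene was called and grey where it was not tested. Colors keep their sign within each column, while the dots of SCG5, PCSK2 and CPE are absent in 10, 5 and 6 of the alternatives that tested them.

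The genes around the members in the secretory pathway were taken from 5 hand-written lists of pathway genes and their regulators. They held 82 genes, of which 68 were tested and 4 were called higher and 6 lower. Of all tested genes, 2.91% were called higher and 1.96% lower, which is also the background of each single list. Of 7 tested convertases and their inhibitors, 0 were called in either direction at the adjusted threshold, with a median log2 fold change of 0.02. An unadjusted edgeR p under 0.05 was found for 2 of them, against 21.1% of all tested genes. PCSK1N was at 48.1, 53.6 and 38.9 CPM without and 53.7, 71.3 and 49.4 CPM with DOX, overlapping between groups (0.31, SE 0.14, adjusted p = 0.25). DESeq2 also called 0 of these genes. Among 8 tested enzymes that trim or modify peptide ends, besides CPE and PAM, 0 were called higher and 1 lower. That gene was carboxypeptidase M, a membrane-bound relative of CPE with the symbol CPM, which fell from 114 ± 1.84 to 92.6 ± 6.57 in normalized CPM (log2 fold change -0.30, SE 0.075, adjusted p = 0.044).

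Of 27 tested genes of dense-core vesicle membranes and exocytosis, 3 were called higher and 2 lower, with a median of -0.004. SLC18A1, a vesicular monoamine transporter, was at 66, 111 and 83 counts without and 40, 30 and 13 counts with DOX, the largest fold change of the 5 lists (-1.88, SE 0.35, adjusted p = 0.014). BAIAP3, a Munc13-family protein of dense-core vesicle trafficking, was at 7.78, 7.27 and 7.65 CPM without and 5.57, 5.66 and 4.37 CPM with DOX (-0.54, SE 0.12, adjusted p = 0.028). The small GTPase RAB3C rose from 9.03 ± 0.282 to 12.7 ± 1.94 CPM (0.50, SE 0.11, adjusted p = 0.030), and SYTL5, which binds RAB27 proteins, was at 1.05 ± 0.0838 CPM without and 1.71 ± 0.292 CPM with DOX (0.71, SE 0.18, adjusted p = 0.049). SYTL5 lost its call in 11 of 16 alternatives, with an edgeR adjusted p of 0.053 under RLE scaling factors and 0.061 with a replicate block. RAB27A, named after its values were seen as the fifth called gene of the list, rose from 17.0 ± 0.615 to 23.0 ± 2.33 CPM (0.43, SE 0.094, adjusted p = 0.024).

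Peptide prohormones are the substrates of these enzymes. Of 25 listed, 14 were tested, 1 was called higher and 1 lower, with a median of 0.02, and the 11 not tested had a mean of at most 10.2 counts per library. NPY, the neuropeptide Y precursor, was at 5.29, 4.36 and 3.13 CPM without and 6.28, 8.31 and 8.11 CPM with DOX (0.82, SE 0.17, adjusted p = 0.023). GRP, the precursor of gastrin-releasing peptide, was at 9.11, 10.4 and 8.44 CPM without and 6.36, 6.66 and 5.29 CPM with DOX (-0.62, SE 0.12, adjusted p = 0.019). Neither gene overlapped between groups in CPM, which held for 7 of the 14 tested prohormones and for 28.1% of all tested genes. In TPM the groups overlapped for GRP and not for NPY. Of 12 transcription regulators of neuroendocrine or CRE-dependent genes, 0 were called higher and 2 lower, with a median of -0.11. EGR1, an immediate early factor, was at 171, 207 and 132 CPM without and 87.7, 89.2 and 93.5 CPM with DOX (-0.92, SE 0.13, adjusted p = 0.0058). INSM1, a zinc finger factor of neuroendocrine cells, was at 103, 119 and 114 CPM without and 89.7, 89.3 and 66.4 CPM with DOX (-0.45, SE 0.11, adjusted p = 0.039). REST, which represses neuronal genes including several granins, was at 22.2, 20.3 and 21.3 CPM without and 21.2, 20.6 and 24.7 CPM with DOX (0.06, SE 0.093, adjusted p = 0.76), and its fold change was -0.023 without DOX-positive replicate 3.

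**Figure D5:**
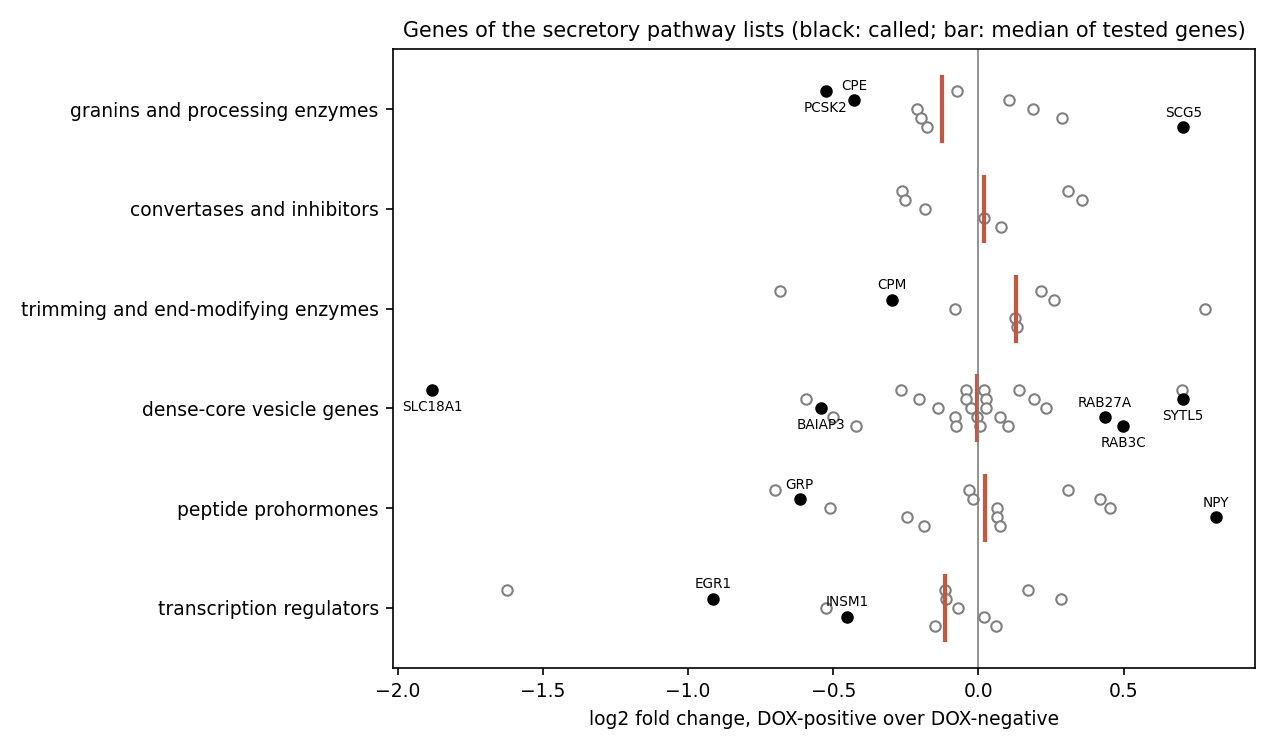
Log2 fold change (x axis) of the tested genes of the 10-gene set and of 5 lists of the secretory pathway and its regulators, with called genes in black and labelled and the median of each list as a bar. Called genes lie on both sides of 0 in the dense-core vesicle and prohormone lists, and the medians lie between -0.13 and 0.13.

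The calls among these 10 genes also depended on the processing and on single libraries. Besides SYTL5, carboxypeptidase M lost its call in 9 of 18 alternatives, INSM1 in 8 of 18 and each of the other 7 genes in 3 to 7. Without DOX-negative replicate 2 or 3 the calls of 9 of them were lost, with EGR1 as the exception. The fold changes were then -0.28 and -0.31 for carboxypeptidase M, -1.73 and -1.78 for SLC18A1, -0.57 and -0.54 for BAIAP3, 0.49 and 0.48 for RAB3C, 0.77 and 0.69 for SYTL5 and 0.45 and 0.40 for RAB27A. They were 0.83 and 0.64 for NPY, -0.53 and -0.69 for GRP and -0.41 and -0.44 for INSM1. When DOX-positive replicate 3 was left out, calls were lost for carboxypeptidase M (-0.33), BAIAP3 (-0.43), RAB3C (0.36), SYTL5 (0.61), RAB27A (0.35), NPY (0.76) and INSM1 (-0.32). Removal of DOX-positive replicate 2 lost those of EGR1 (-0.91), NPY (0.75) and INSM1 (-0.52), removal of DOX-positive replicate 1 those of carboxypeptidase M (-0.32) and SYTL5 (0.67), and removal of DOX-negative replicate 1 those of carboxypeptidase M (-0.31), BAIAP3 (-0.52), RAB3C (0.53), SYTL5 (0.66) and RAB27A (0.45).

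For each called member, the 3 tested genes with the most similar pattern were found by the root mean square difference in centred log2 CPM over the 6 libraries, among 14587 tested genes whose mean was 50 counts or more. Those of PCSK2 were PDE9A (0.033), MAGEH1 (0.035) and CDHR1 (0.043). For CPE they were GPC4 (0.034), FAM83D (0.042) and NIPSNAP2 (0.042). The nearest patterns to SCG5 were PRRX2 (0.087), KRT81 (0.090) and TMPRSS4 (0.098), at larger differences than for the enzymes. SCG5 had the fewest counts of the members, and the part of this in the larger differences was not tested. None of the other 9 members was among the 3 nearest genes of a called member. With only 3 genes taken from 14587, this says little on whether members changed together.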

How the data were processed

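RNA was extracted from H660 cells in triplicate per group and, per the labels, made into stranded mRNA libraries. Whether this library type fits the RN7SK share of 5.83 to 7.79% of counts was not checked. For each gene symbol the authors deposited raw counts and TPM, which they derived from these reads; their processing notes name STAR, DESeq2 and the GRCh38 (hg38) build, while versions, annotation and strand setting are not given in the sources used here. The deposited counts held 28008 symbols (0 entries named no gene) and the deposited TPM 25673, and 26581 symbols (94.9%) were matched to a RefSeq table (GRCh38.p14), which gave coordinates and promoters. Groups came from sample titles. Counts were analysed with edgeR 4.0.16 in R 4.3.3 (filterByExpr, TMM, robust glmQLFit, glmQLFTest, no covariate), with Benjamini-Hochberg adjustment over 17026 genes and a biological coefficient of variation of 9.58%. Ratios were compared with exact permutation tests (scipy 1.17.1). Alternatives used RLE or no scaling, other filters, DESeq2 1.42.0, limma-trend 3.58.1 on log2 TPM (pseudocounts 1 and 0.1), a replicate block and each library left out. Fits on protein-coding genes only and with GC and length offsets (mgcv 1.9.3, values for 89.1% of tested genes), alone and with the block, were added after the data were seen. No libraries of a group were duplicates (chi-square of 15.6 to 95.1 per degree of freedom). Named genes were the members, MUC1, PCSK1N, REST, up to 4 called genes per pathway list by size of change, and the 3 nearest patterns of each called member. The members and lists were chosen with earlier results of these data known. The summed level of the luminal markers is not reported here. The code was tested on simulated counts.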

Additional observations from a re-analysis of the deposited data

How the results depend on the processing

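Of all tested genes, 829 were called by edgeR (496 higher, 333 lower), against 1354 by DESeq2 (752 higher, 602 lower), 1960 with GC and length offsets and 58 to 1035 with 1 library left out. Limma-trend called 30 (13 higher, 17 lower) on log2(TPM + 1) and 35 (16 higher, 19 lower) on log2(TPM + 0.1) where mean TPM reached 1, and 0 on log2(TPM + 1) with a mean above 0, the cause of which was not tested. The number of called members was 3, and it was 0 in each of the 3 TPM fits, 5 with GC and length offsets and 0 to 3 with 1 library left out. In the 5 pathway lists the TPM fits called 0 genes. Offsets for GC content and length called 1 convertase or inhibitor (0 in the text), 8 vesicle genes (5) and 4 transcription regulators (2), and DESeq2 called 8 vesicle genes. Without scaling factors, 0 end-modifying enzymes (1 in the text) and 1 transcription regulator (2) were called. Leaving out 1 library gave 0 to 1 end-modifying enzymes, 0 to 7 vesicle genes, 0 to 2 prohormones and 0 to 4 transcription regulators. The log2 difference in PCSK1N over PCSK1 was -0.11 to 0.32 with 1 library left out, and REST was -0.023 to 0.11, while SCG5 over PCSK2 stayed at 1.05 to 1.43 and PCSK1 over PCSK2 at 0.52 to 0.87. The replicate numbers showed no pairing in the values. Deviations of same-numbered libraries correlated at -0.54, 0.019 and -0.10 over 14587 genes, and 0 of 6 libraries correlated best with their own number. These correlations cannot settle how the cultures were set up. A replicate block on the replicate numbers called 3 members and 998 genes. With the block and GC and length offsets together, 2 members and 1113 genes were called. Among other named genes, 159 of 226 alternative values kept their side of the threshold, 66 lost a call and 1 changed sign. Among the members, SCG5 had the fewest counts, 90 to 237 per library.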

Other observations

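The substrates of the processing enzymes were uneven in level. Among the prohormones, CALCA and CALCB had the highest means without DOX. CALCA was at 9.23 ± 0.928 TPM without and 9.79 ± 1.01 TPM with DOX (SD, n = 3, edgeR adjusted p = 0.75), and CALCB was at 8.70 ± 0.953 and 7.77 ± 1.18 TPM. NPY was at 6.20 ± 2.12 and 10.9 ± 0.943 TPM and GRP at 7.47 ± 1.71 and 4.96 ± 1.16 TPM, so NPY had the highest mean of the listed prohormones with DOX and the fourth highest without. PCSK1N, at 28.7 ± 7.97 and 35.3 ± 5.25 TPM, was near CHGA in level without DOX and above it in all 3 libraries with DOX. The precursors PENK, PDYN, SST, VIP, GAST, CCK and TAC1 each had at most 2 counts in any library, and CARTPT, IAPP and GHRH had 0. Except for PCSK1N, NPY and GRP, these genes were chosen after their values were seen.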
